A study of Mus musculus with 8 samples.

Results

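The duplicated gene cluster of the proximal part of mouse chromosome 17 was followed here through 9 of the 31406 genes in the deposited table, namely Gm26848, AC183097.2, AC183097.3, Gm2885, AC122413.1, Rnaset2a, Rnaset2b, Tagap1 and Rsph3b. They were taken by gene name from the deposited tables of the study's comparisons and joined by gene identifier, and all 9 were found on chromosome 17. The list of names was selected on differences between treatments in those tables (dual against antagonist, and antagonist against control), and the size of difference asked for was not stated, so the differences between groups given for these 9 genes are a description and carry no test. Of these, 8 lie between 6.31 and 7.01 Mb, whereas Rnaset2a lies at 8.12 to 8.15 Mb, outside the interval that the choice named. RNA had been sequenced from 8 primary cultures of wild-type (WT) mouse microglia, which the study prepared from the striatum of neonatal C57/BL6 pups. After 15 days in culture all 8 received lipopolysaccharide (LPS) and interferon-γ for 48 h, and ligands were added at 24, 32 and 40 h of this activation. According to the titles, 4 libraries received SCH 58261, an antagonist of the adenosine A2A receptor (antagonist group), and 4 received SCH 58261 together with 200 nM 2-Cl-IB-MECA, an agonist of the adenosine A3 receptor (dual group). A separate label on treatment reads the other way round, with the agonist in the cultures titled without it and no agonist in those titled with both ligands, and the direction of every difference rests on the titles, to which the names of the deposited count columns correspond. No label ties a library to a litter, an animal or a date, so p-values measure only the spread between these libraries, which may be technical. Libraries held between 32630602 and 45878639 counts.

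The proximal part of mouse chromosome 17 carries the t complex and is rich in segmental duplications, so that several genes that are single in humans are present as near-identical copies. Rnaset2a and Rnaset2b encode the T2 ribonuclease, an acid ribonuclease of lysosomes that cuts single-stranded RNA and supplies fragments to endosomal Toll-like receptors. Rsph3b and its copy Rsph3a encode radial spoke head protein 3, part of the spokes that connect the outer and central microtubules of motile cilia. Tagap1 and its copy Tagap encode GTPase-activating proteins, and Tagap1 has been described as a distorter of transmission ratio of the t complex. The remaining members are long non-coding RNAs and pseudogenes.

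The coding sequences of the copies were taken from the spliced GENCODE M21 transcripts (GRCm38). Where they align, few positions tell reads of the coding part apart. The whole transcripts, of which the coding part is a portion, are compared further below. Over 777 coding bases Rnaset2a and Rnaset2b differed at 0 positions. The first 90 bases of the coding sequence, at chr17:8147605-8147694 on the minus strand and chr17:6978998-6979087 on the plus strand, are therefore printed once for both copies.
Rnaset2a and Rnaset2b: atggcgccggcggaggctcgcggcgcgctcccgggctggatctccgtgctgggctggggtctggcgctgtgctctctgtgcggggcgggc
The coding sequence of Rsph3b (1167 bases) aligned without gaps to the last 1167 of the 1548 coding bases of Rsph3a and differed at 2 positions. The window below holds 1 of them, in capitals, and lies at chr17:7946191-7946280 on the plus strand in Rsph3a and at chr17:6948001-6948090 on the minus strand in Rsph3b.
Rsph3a: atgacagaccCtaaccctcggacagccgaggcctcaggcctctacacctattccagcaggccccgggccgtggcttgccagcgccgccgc
Rsph3b: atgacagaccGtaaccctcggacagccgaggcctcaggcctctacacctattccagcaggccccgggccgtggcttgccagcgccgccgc
Tagap1 and Tagap shared an aligned stretch of 1361 coding bases with 6 differences. A window of this stretch with 2 of the differences in capitals lies at chr17:7932989-7933078 on the plus strand in Tagap and at chr17:6956829-6956918 on the minus strand in Tagap1.
Tagap: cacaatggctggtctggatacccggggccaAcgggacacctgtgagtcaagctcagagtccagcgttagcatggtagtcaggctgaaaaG
Tagap1: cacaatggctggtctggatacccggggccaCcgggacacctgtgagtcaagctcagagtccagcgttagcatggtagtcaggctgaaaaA
The copies part at the start of the protein. The first 154 coding bases of Tagap1, spliced from exons between chr17:6960739-6961129 on the minus strand, lie outside the alignment to Tagap. They are shown because they set the 2 copies apart, which does not make them particular to Tagap1. Of 2282 stretches of 31 bases in Tagap1, 153 (6.7%) also occur in Fgfr1op, a tested gene of the same region. Whether these fall in the printed start was not tested.
Tagap1 start: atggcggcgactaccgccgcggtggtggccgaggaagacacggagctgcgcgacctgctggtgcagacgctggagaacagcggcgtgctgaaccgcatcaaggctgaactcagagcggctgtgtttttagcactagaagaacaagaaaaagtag

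In gene order the copies fall into 2 blocks. Rsph3b, AC122413.1, Tagap1 and Rnaset2b occupy the left block, and E430024P14Rik, Tagap, Rsph3a and Rnaset2a occupy the right block, each copy on the strand opposite to that of its counterpart. Tagap and Rsph3a follow each other in the mirror order of Rsph3b and Tagap1, whereas Rnaset2a lies beyond Rsph3a. Further to the left, AC183097.2 and AC183097.3 lie within the span of Gm26848 and to the right of Tulp4. Coordinates and strand of all 9 members were identical in GENCODE M21 and in the deposited table.

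**Figure D1:**
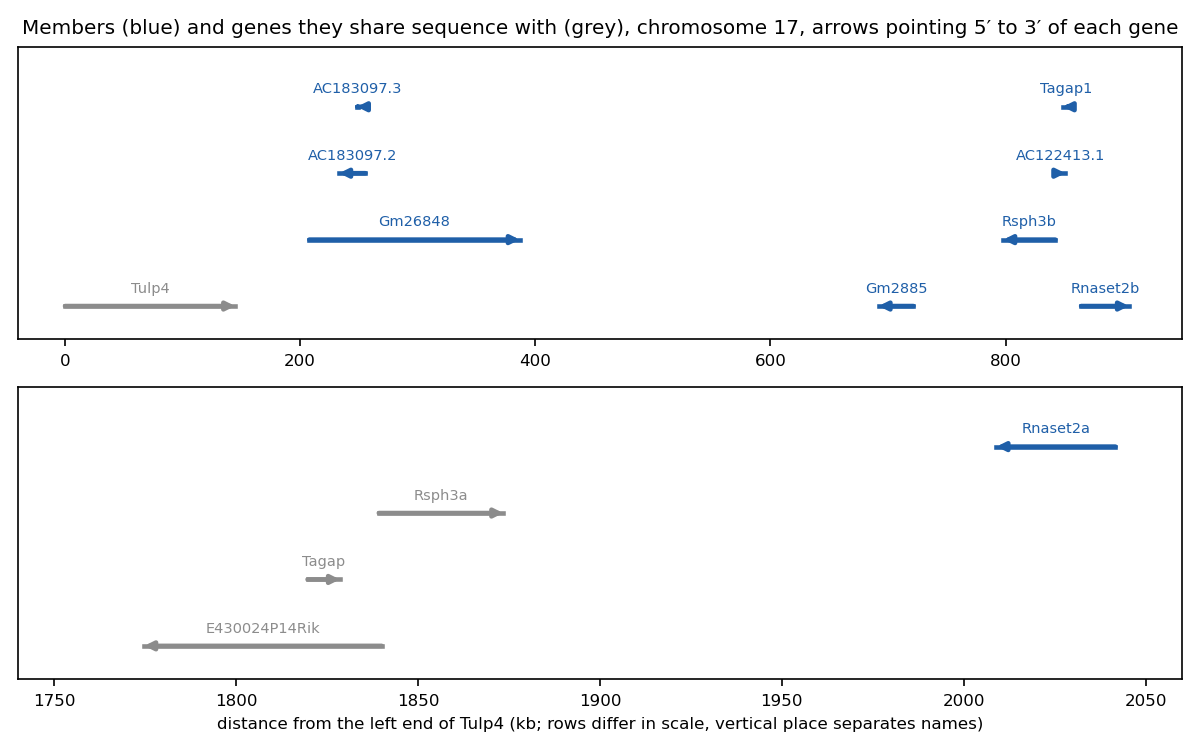
Positions of the members (blue) and of the genes they share sequence with (grey) on chromosome 17, as distance in kb from the left end of Tulp4, with arrows pointing in the direction of transcription and the vertical place used only to separate names. The arrows of Rsph3b, Tagap1 and Rnaset2b in the upper row point opposite to those of Rsph3a, Tagap and Rnaset2a in the lower row.

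To see what sequence could assign a read, spliced transcripts of each gene were cut into words of 150 bases, the length of a read. Each word was sought on both strands in the transcripts of every other gene. Reads came in pairs, and these words leave the mate of a read out of account. Of the 3193 words of Rnaset2a, 1703 (53.3%) also occurred in another gene. The shares were 36.8% for Rnaset2b (1703 of 4625 words), 44.2% for Rsph3b (1311 of 2963) and 41.8% for Tagap1 (904 of 2163). They were highest for AC183097.2, with 84.5% (2544 of 3010), and for AC122413.1, with 81.1% (420 of 518). Gm26848, AC183097.3 and Gm2885 had 0 shared words of this length, so a read that matches their transcripts over its whole length has no second gene among the annotated transcripts.

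**Figure D2:**
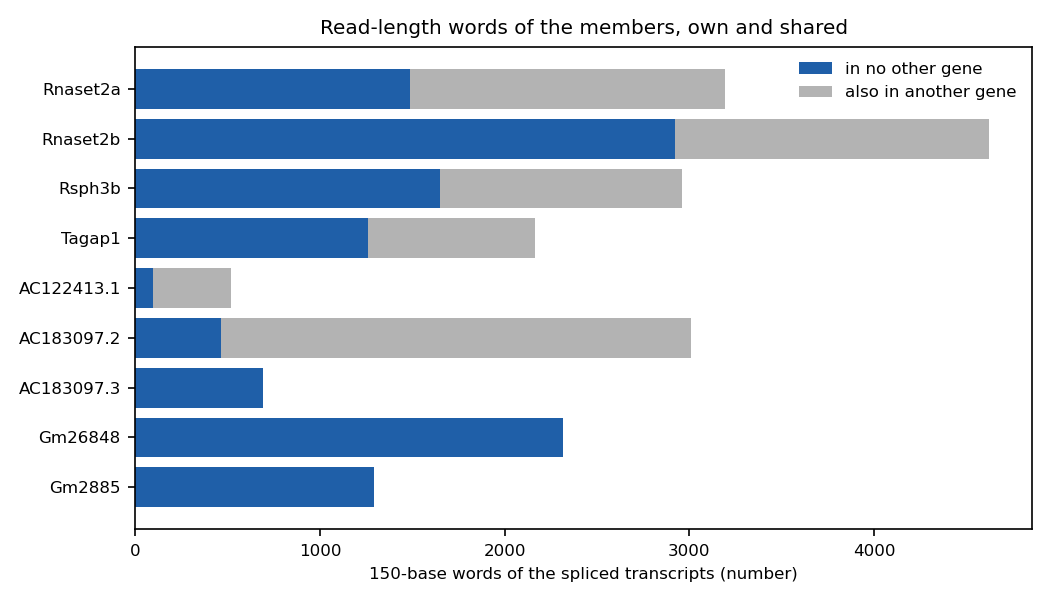
Number of 150-base words of each member that occur in no other gene (blue) and that also occur in another gene (grey). AC122413.1 kept 98 words of its own and AC183097.2 kept 466, against 2922 for Rnaset2b.

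How the deposited counts treat such reads is not given in the sources used here, so genes without counts were compared across the whole annotation. Of 1385 genes whose 150-base words all occurred in another gene, 1258 (90.8%) had no count in any library, compared with 11146 of 31467 genes (35.4%) that shared no word. Here and below, annotated genes absent from the deposited table were taken as having no count. Of 145 genes whose exons lay at least 95% inside the exons of a gene of at least 20 CPM (counts per 1e6 counts) on the opposite strand, 135 (93.1%) had no count. With such a gene on the same strand it was 30 of 33 (90.9%). For genes that overlapped no such gene the figure was 18562 of 45378 (40.9%). These sets of genes were not matched for biotype, length or level, so the figures do not settle how shared or antisense reads were counted. Levels are given below both per kb of exons and per 1000 own words. Whether strand was used in counting is not given in the sources used here, so the count of AC122413.1, which is antisense to Rsph3b and Tagap1, stays uncertain.

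All 9 members passed the low-count filter, and 0 of 9 were called by edgeR's quasi-likelihood test at a Benjamini-Hochberg adjusted p under 0.05, where 39 of 18756 genes (0.208%) were called, 9 higher and 30 (0.16%) lower in the dual group. Over the whole table this number ran from 0 to 172 on leaving out 1 library, and was 366 without the low-count filter and 381 with DESeq2. At an unadjusted p under 0.05 there were also 0 of 9 members, with 12.8% of all tested genes, and DESeq2 called 0 of the 2 members (Tagap1 and Rsph3b) to which it gave an adjusted p, with 3.37% of all genes that had one. These counts use a contrast known when the members were chosen, and nothing is read from them. By sign 7 members were lower and 2 higher with both ligands. The median over the 9 log2 fold changes was -0.09, against 0.0038 over all tested genes. The values of the 2 groups did not overlap in 1 of 9 members, Rnaset2a, whereas 7.42% of all tested genes had groups that did not overlap.

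**Figure D3:**
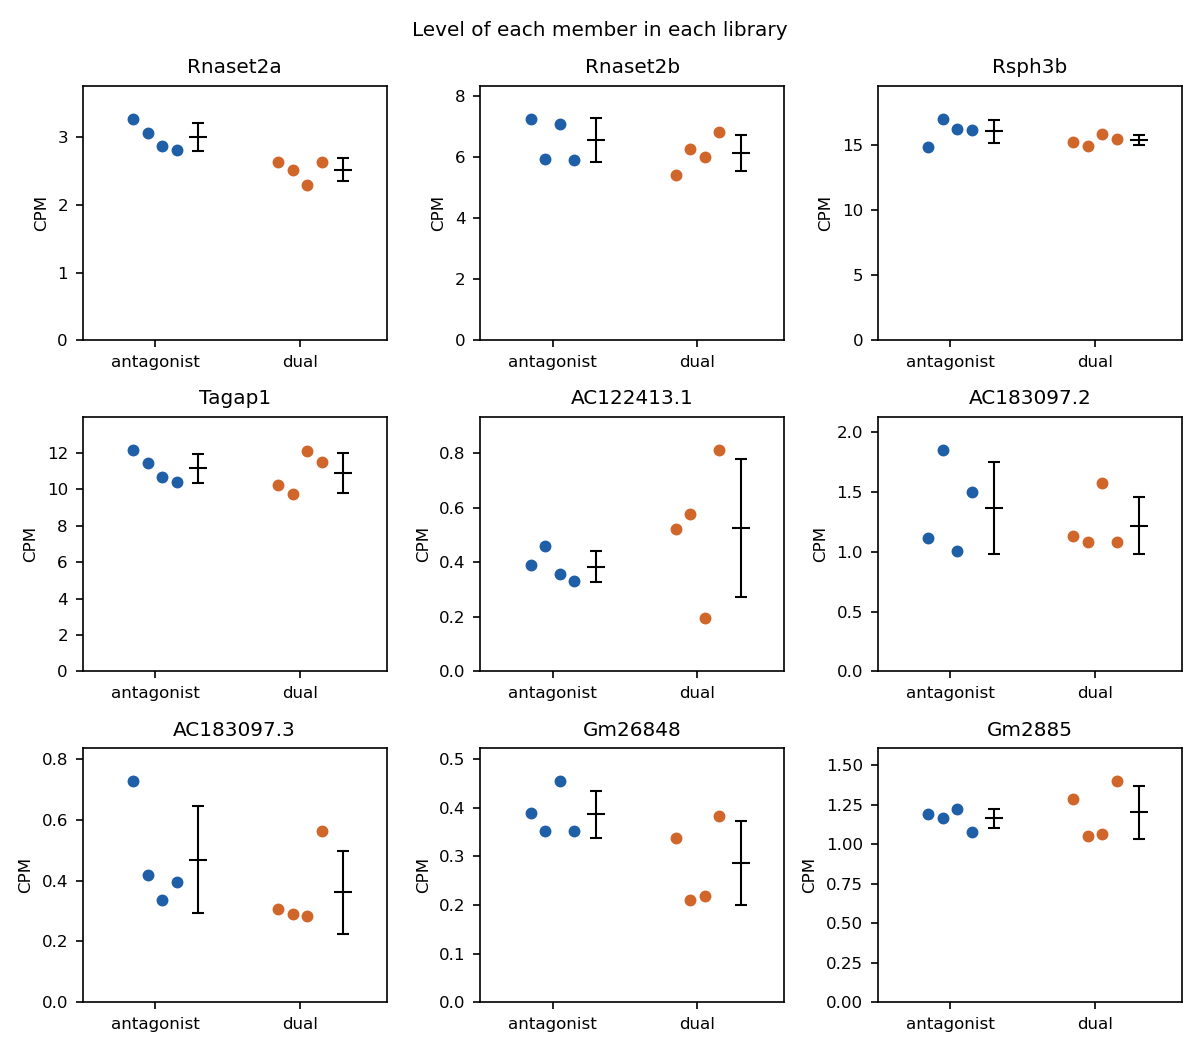
Level of each member in each of the 8 libraries, in CPM scaled by TMM factors, with the mean and SD (n = 4) of each group drawn in black beside the points and every vertical axis starting at 0. Only in the Rnaset2a panel do the points of the dual group (2.29 to 2.64 CPM) all lie below those of the antagonist group (2.82 to 3.27 CPM).

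Rnaset2a (ENSMUSG00000095687, chr17:8115445-8148097, minus strand, protein-coding, 10 exons) had 126, 139, 120 and 128 counts in the antagonist libraries and 86, 96, 105 and 117 in the dual libraries. Scaled to depth this was 3.00 ± 0.203 CPM (SD, n = 4) and 2.52 ± 0.165 CPM. Every dual library lay below every antagonist library, and the log2 fold change was -0.25 (SE 0.12, 95% interval -0.51 to 0.0074). Rnaset2b (ENSMUSG00000094724, chr17:6970634-7011299, plus strand, protein-coding, 12 exons), whose coding sequence is identical, had 279, 270, 296 and 268 counts in the antagonist libraries and 176, 238, 276 and 302 in the dual libraries. Its groups overlapped, at 6.54 ± 0.719 and 6.12 ± 0.587 CPM, with a log2 fold change of -0.09 (SE 0.10, 95% interval -0.30 to 0.12). With the counts of both copies summed the log2 fold change was -0.14 (SE 0.08). Read-through genes cover 909 exonic bases of each copy on the same strand, and they had between 1 and 10 counts per library.

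Rnaset2b exceeded Rnaset2a in every library, by a ratio of counts of 2.18 ± 0.222 with the antagonist and 2.43 ± 0.266 with both ligands. Per kb of exons the ratios were 1.64 ± 0.166 and 1.83 ± 0.199. Per own 150-base word they were 1.11 ± 0.113 and 1.24 ± 0.136, with values from 0.991 to 1.34 over the 8 libraries. The ratio was thus furthest from 1 in raw counts and nearest to 1 on the scale of own words. The promoter windows of RefSeq (GRCm38.p6, 250 bases before to 50 after the start, found for 5 of the 9 members) of these copies aligned over 255 bases with 1 difference.

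Around these enzymes, the 10 genes fixed as lysosomal nucleases and endosomal nucleic acid sensors were all tested, and 0 were called by edgeR's quasi-likelihood test, with 3 higher and 7 lower by sign and a median log2 fold change of -0.05. Tlr8, an endosomal Toll-like receptor for RNA, had the largest difference, from 20.4 ± 1.53 to 23.9 ± 2.10 CPM (log2 fold change 0.23, SE 0.07, edgeR adjusted p = 0.145). Tlr9, a receptor for unmethylated DNA, went from 7.62 ± 0.454 to 7.19 ± 0.464 CPM (log2 fold change -0.09, edgeR adjusted p = 0.718). At an unadjusted p under 0.05 stood 1 of the 10 genes.

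Rsph3b (ENSMUSG00000023806, chr17:6904413-6948682, minus strand, protein-coding, 9 exons) was the member with the highest mean CPM. It had 572, 772, 679 and 732 counts in the antagonist libraries and 496, 568, 726 and 686 in the dual libraries, or 16.0 ± 0.892 and 15.4 ± 0.380 CPM. The ranges overlapped, and the log2 fold change of -0.06 (SE 0.06, 95% interval -0.19 to 0.06) was the most closely bounded of the 9. Its copy Rsph3a had 406, 459, 492 and 786 counts in the antagonist libraries and 301, 410, 526 and 461 in the dual libraries. A single antagonist library, replicate 4, was high in Rsph3a (17.3 CPM, against 10.1 to 11.8 in the other antagonist libraries), while the same library was not high in Rsph3b (16.1 CPM, below antagonist replicates 2 and 3). The log2 fold change of Rsph3a was -0.25 (SE 0.13, edgeR adjusted p = 0.445) with that library and -0.04 without it.

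Per own 150-base word, Rsph3b exceeded Rsph3a by ratios of 1.04 to 1.87 over the 8 libraries, and the ratios of raw counts were 1.35 ± 0.311 with the antagonist and 1.48 ± 0.125 with both ligands. The promoter windows of Rsph3a and Rsph3b, placed at different annotated starts, aligned over no more than 19 bases, and those of Tagap and Tagap1 over 41 bases with 11 differences. Of 7 listed radial spoke genes 6 were tested and 0 were called by edgeR's quasi-likelihood test, with 4 higher and 2 lower by sign, a median log2 fold change of 0.11 and 1 at an unadjusted p under 0.05. Rsph4a, a protein of the spoke head, had 18.5 ± 1.05 CPM with the antagonist and 22.5 ± 4.6 with both ligands (log2 fold change 0.29, SE 0.10, edgeR adjusted p = 0.207), and Rsph3a came second in size of difference.

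Tagap1 (ENSMUSG00000052031, chr17:6955011-6961156, minus strand, protein-coding, 4 exons) had 469, 520, 446 and 473 counts in the antagonist libraries and 334, 372, 556 and 511 in the dual libraries. These were 11.2 ± 0.789 and 10.9 ± 1.09 CPM. Replicates 1 and 2 of the dual group were its lowest libraries and replicates 3 and 4 lay within the antagonist range, so the groups overlapped, with a log2 fold change of -0.03 (SE 0.08, 95% interval -0.20 to 0.14). Tagap had 490, 550, 515 and 535 counts in the antagonist libraries and 325, 409, 500 and 499 in the dual libraries. In CPM every dual library of Tagap (9.96 to 11.3) lay below every antagonist library (11.8 to 12.7), with a log2 fold change of -0.19 (SE 0.07) that did not pass the test (edgeR adjusted p = 0.220). Per own 150-base word, Tagap1 exceeded Tagap by 1.46 ± 0.0716 with the antagonist and 1.62 ± 0.133 with both ligands, although the ratio of raw counts was 0.913 ± 0.0449 and 1.02 ± 0.0831. Summed, the copies gave a log2 fold change of -0.11 (SE 0.06).

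TAGAP proteins are known from activated T cells, and of the 3 T cell markers in the table Cd247 had a mean of 2.45 CPM, Cd3d 0.0092 CPM and Cd3e 0.0065 CPM; the part of T cells in the level of Tagap1 was not tested.

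AC122413.1 (ENSMUSG00000116618, chr17:6948446-6957196, plus strand, antisense, 2 exons, named Gm49719 in GENCODE M21) runs against both Rsph3b and Tagap1. Of its 667 exonic bases, 90 overlap exons of Rsph3b and 405 overlap exons of Tagap1, and the remaining 172 form a single stretch inside an intron of Tagap1 at chr17:6957025-6957196. This stretch matched the transcript of E430024P14Rik, the antisense gene of the right block, at all 172 bases (0 differences), and is printed because it is the sequence that neither coding gene covers.
AC122413.1: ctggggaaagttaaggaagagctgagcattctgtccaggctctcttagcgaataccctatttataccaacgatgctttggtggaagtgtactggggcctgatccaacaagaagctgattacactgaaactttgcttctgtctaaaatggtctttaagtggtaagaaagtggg
The gene had 15, 21, 15 and 15 counts in the antagonist libraries and 17, 22, 9 and 36 in the dual libraries. Replicate 3 of the dual group was the lowest of the 8 libraries and replicate 4 the highest, so that the SD grew from 0.0565 CPM around a mean of 0.385 to 0.254 CPM around a mean of 0.527. The log2 fold change was 0.44 (SE 0.36, 95% interval -0.31 to 1.20). E430024P14Rik had 37, 34, 34 and 42 counts in the antagonist libraries and 21, 17, 27 and 37 in the dual libraries, with overlapping groups and a difference in the other direction (log2 fold change -0.44, SE 0.24, edgeR adjusted p = 0.471).

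AC183097.2 (ENSMUSG00000116812, chr17:6339604-6361848, minus strand, unprocessed pseudogene, 6 exons, Gm2792 in GENCODE M21) shares most of its sequence with Tulp4, a gene of the tubby-like family. Of its 3129 words of 31 bases, 2926 (93.5%) occur in Tulp4 and 2891 (92.4%) in AC183095.1 (Gm2808 in GENCODE M21). It had 43, 84, 42 and 68 counts in the antagonist libraries and 37, 41, 72 and 48 in the dual libraries, or 1.37 ± 0.384 and 1.22 ± 0.237 CPM. Single libraries of both groups were high (antagonist replicates 2 and 4, dual replicate 3) and the groups overlapped, with a log2 fold change of -0.17 (SE 0.22, 95% interval -0.62 to 0.29). Tulp4 itself had 4803 to 7003 counts per library and a log2 fold change of 0.03 (SE 0.03, edgeR adjusted p = 0.804). AC183095.1 had 21 to 37 counts in the antagonist libraries and 20 to 33 in the dual libraries, with a log2 fold change of 0.03 (SE 0.29, edgeR adjusted p = 0.981).

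AC183097.3 (ENSMUSG00000116921, chr17:6354689-6355526, minus strand, processed pseudogene, 1 exon, Gm49693 in GENCODE M21) had 28, 19, 14 and 18 counts in the antagonist libraries and 10, 11, 13 and 25 in the dual libraries. Antagonist replicate 1 and dual replicate 4 stood above the rest, the groups overlapped at 0.469 ± 0.175 and 0.361 ± 0.136 CPM, and the log2 fold change was -0.35 (SE 0.35, 95% interval -1.07 to 0.38). It lies within the span of AC183097.2, on the same strand. Of its 808 words of 31 bases, 445 (55.1%) occur in Tulp4 and 25 (3.09%) in Fbl, the gene of the nucleolar RNA methyltransferase fibrillarin. Fbl was the gene fixed as its partner. Tulp4 in turn shares 900 of its 18153 words of 31 bases with Fbl. At most 25 words of AC183097.3 can be among these 900, since no more of its words occur in Fbl. Where in Tulp4 its match lies was not tested. Fbl, on chromosome 7, had 1888 to 2415 counts with the antagonist and 1461 to 2104 with both ligands. In CPM its groups were 51.5 ± 1.85 and 45.4 ± 0.769 and did not overlap, with a log2 fold change of -0.18 (SE 0.04) that did not pass the test (edgeR adjusted p = 0.0636). DESeq2 gave Fbl an adjusted p of 0.0040.

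The long intergenic RNAs had the sequence most clearly their own. Gm26848 (ENSMUSG00000097723, chr17:6314199-6493180, plus strand, 2 exons) had 15, 16, 19 and 16 counts in the antagonist libraries and 11, 8, 10 and 17 in the dual libraries. Dual replicate 4 lay among the antagonist libraries, at 0.384 CPM, and the log2 fold change was -0.43 (SE 0.33, 95% interval -1.11 to 0.26). Of its 2437 words of 31 bases, 299 (12.3%) occur in Dynlt1c, a dynein light chain gene. Gm2885 (ENSMUSG00000097103, chr17:6798390-6827990, minus strand, 2 exons) had 46, 53, 51 and 49 counts in the antagonist libraries and 42, 40, 49 and 62 in the dual libraries. It was the long non-coding member with the smallest difference, at 1.16 ± 0.0613 and 1.20 ± 0.170 CPM, with overlapping groups and a log2 fold change of 0.05 (SE 0.19, 95% interval -0.34 to 0.43).

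**Figure D4:**
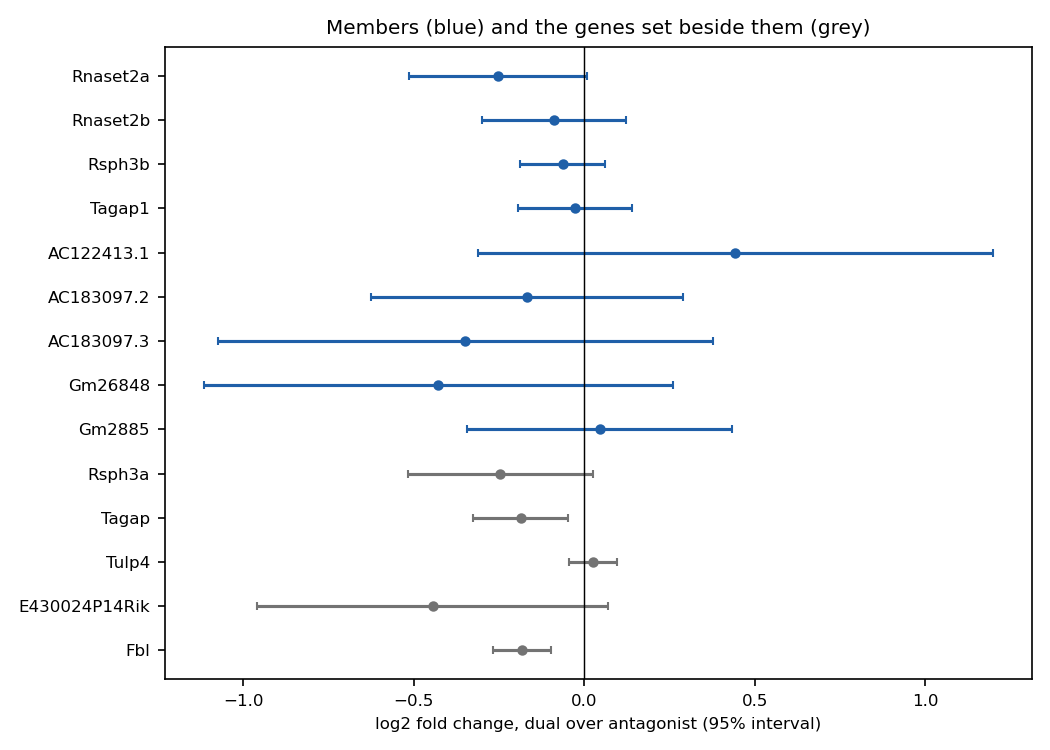
Log2 fold change of each member (blue) and of the genes set beside them (grey), dual over antagonist, with the 95% interval of the fit across all genes. Intervals of the members are widest for AC122413.1, AC183097.3 and Gm26848, the members with the fewest counts.

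Per kb of exons and over all 8 libraries, the order of the levels was Rsph3b (5.04 ± 0.235 CPM per kb), Tagap1 (4.78 ± 0.386), Rnaset2b (1.42 ± 0.145), Rnaset2a (0.826 ± 0.0925), Gm2885 (0.820 ± 0.0832), AC122413.1 (0.684 ± 0.280), AC183097.3 (0.495 ± 0.186), AC183097.2 (0.409 ± 0.0968) and Gm26848 (0.137 ± 0.0341). The ranges of Rsph3b and Tagap1 overlapped, as did those of neighbours in the order from Rnaset2a to AC183097.2. Gaps without overlap separated Tagap1 from Rnaset2b, Rnaset2b from Rnaset2a and AC183097.2 from Gm26848. Per 1000 own words in the antagonist group, the means of AC122413.1 (3.93 ± 0.577 CPM) and AC183097.2 (2.93 ± 0.824) moved above those of Rnaset2b (2.24 ± 0.246) and Rnaset2a (2.02 ± 0.136). Rsph3b (9.71 ± 0.540) and Tagap1 (8.87 ± 0.627) stayed at the top. The antagonist range of AC183097.2 on this scale overlapped those of Rnaset2b and Rnaset2a. The level of AC122413.1 rests on 98 own words and 15 to 21 counts per antagonist library, and was 5.38 ± 2.59 in the dual group.

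The share of a copy in the summed counts of its pair was then compared. A shift of reads from a gene to its near-identical copy moves this share while leaving the sum in place. A change in the RNA of either copy moves the share too, and what moved a share was not tested. Rnaset2b took 68.9, 66.0, 71.2 and 67.7% of the counts of its pair with the antagonist and 67.2, 71.3, 72.4 and 72.1% with both ligands, a difference of 2.30 percentage points between groups that overlapped, which was 1.5 points without antagonist replicate 2 and 3.49 points without dual replicate 1. Rsph3b took 58.5, 62.7, 58.0 and 48.2% with the antagonist and 62.2, 58.1, 58.0 and 59.8% with both ligands, a difference of 2.67 points. The low value was again antagonist replicate 4, the library in which Rsph3a was high, and without it the difference was -0.20 points. Tagap1 took 48.9, 48.6, 46.4 and 46.9% with the antagonist and 50.7, 47.6, 52.7 and 50.6% with both ligands. In this pair 3 dual libraries lay above the antagonist libraries and replicate 2 lay among them, with a difference of 2.68 points.

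For the pseudogenes the shares were small. AC183097.2 took between 0.683 and 1.24% of the counts it made up with Tulp4 in the antagonist libraries and between 0.686 and 1.02% in the dual libraries. AC183097.3 took between 0.633 and 1.46% of its counts with Fbl in the antagonist libraries and between 0.614 and 1.24% in the dual libraries. With 0 shared words of 150 bases, AC183097.3 is no near-identical copy of Fbl, and this share does not follow reads moving between copies. AC122413.1 took 28.8, 38.2, 30.6 and 26.3% of its counts with E430024P14Rik with the antagonist and 44.7, 56.4, 25.0 and 49.3% with both ligands, on pair sums of 36 to 73 counts. This last pair was chosen after its values were seen. Of its 4 dual libraries, 3 lay above the antagonist range and replicate 3 lay below it, with a difference of 12.9 points.

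**Figure D5:**
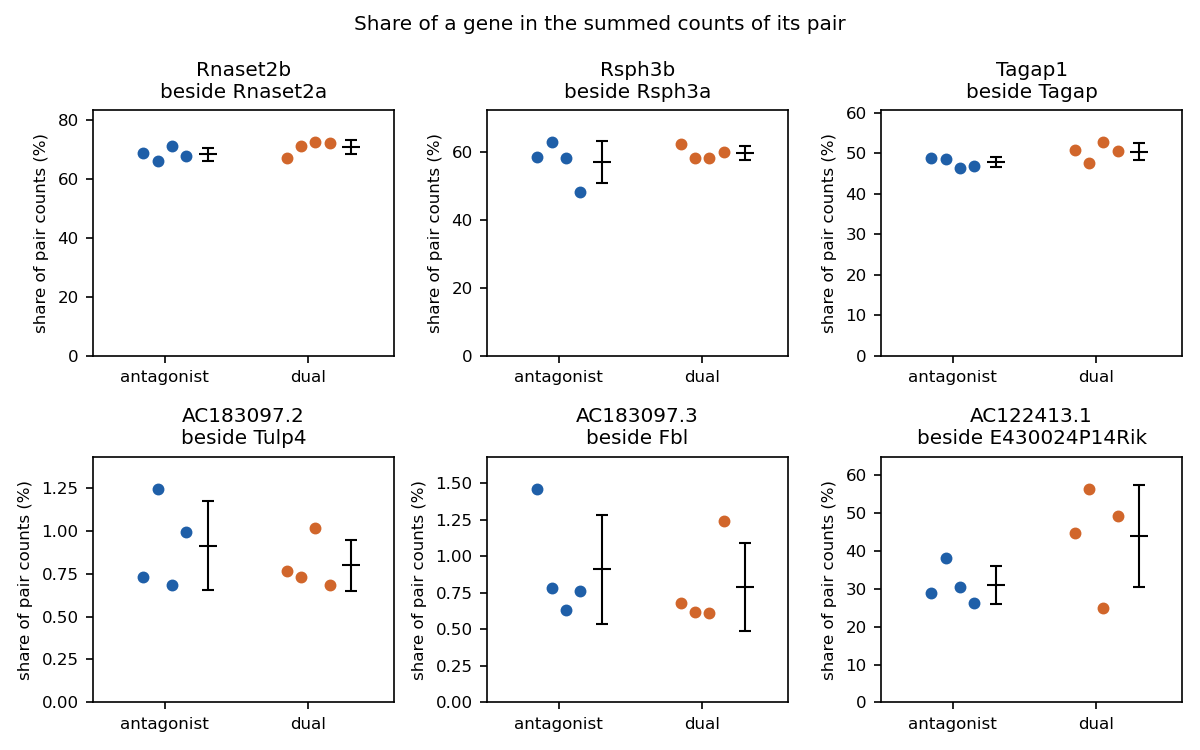
Share of a member in the summed counts of the member and the gene it is set beside, in percent, for each library, with the group mean and SD (n = 4) in black and every vertical axis starting at 0. The groups overlap in all 6 panels, and the low antagonist point of Rsph3b (48.2%) is replicate 4.

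Around the members, 41 other genes of the deposited table lie between 6.0 and 8.3 Mb on chromosome 17, of which 27 were tested. None of the 27 was called by edgeR's quasi-likelihood test, and 0 by DESeq2, which gave 14 of them an adjusted p. At the same time 2 stood at an unadjusted p under 0.05 in edgeR, and 11 were higher and 16 lower by sign, with a median log2 fold change of -0.02. Of 10 genes listed as other duplicated genes of the region, all of them among the 27, 10 were tested. Of these 10, 0 were called by edgeR's quasi-likelihood test, with 0 at an unadjusted p under 0.05. Whether each of the listed genes has a copy was not tested. Sytl3, a synaptotagmin-like protein of vesicle transport, had the largest difference among them, from 0.383 ± 0.116 to 0.573 ± 0.161 CPM (log2 fold change 0.56, SE 0.32, edgeR adjusted p = 0.487). The pseudogene Tmem181c-ps came next, with 0.372 ± 0.195 and 0.484 ± 0.145 CPM (log2 fold change 0.36, edgeR adjusted p = 0.745).

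In bulk cultures the cells that carry a member's RNA are not seen, and fewer cells of a type and less RNA per cell cannot be told apart. The 10 microglial markers were all detected, with summed levels of 1045 to 1118 CPM in the antagonist group and 1003 to 1059 CPM in the dual group, with 4 of the 10 higher and 6 lower in the dual group by sign. Of these, 1 was called, the complement gene C1qa, which was lower (mean 439.6 CPM, log2 fold change -0.24, SE 0.04, edgeR adjusted p = 0.0240). This call was lost without antagonist replicate 2, 3 or 4 and without dual replicate 3 (edgeR adjusted p from 0.0648 to 0.0932). The 5 astrocyte markers summed to more, 4873 to 5107 and 4899 to 5232 CPM, and the 6 fibroblast markers to 2379 to 2652 and 2369 to 2986 CPM. The 5 oligodendrocyte markers summed to 453.1 to 487.1 CPM with the antagonist and 420.9 to 445.1 CPM with both ligands, ranges that did not overlap. Markers of ciliated ependymal cells, the cells that use radial spokes, summed to 269.0 to 293.9 and 273.7 to 317.3 CPM, with the ciliary master regulator Foxj1 at a mean of 231 CPM. Levels were low for the 2 of 3 endothelial markers in the table (30.1 to 41.6 CPM over both groups), 4 neuronal markers (9.12 to 11.3 CPM) and the 3 of 4 T cell markers in the table (1.16 to 3.56 CPM). The part of other cell types in the levels of the members was not tested.

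The genes whose log2 CPM was most like that of Rsph3b over the 8 libraries, among 10533 genes with a mean of at least 10 CPM, were Slc35c2 (Pearson r = 0.98), Tbc1d20 (r = 0.979) and Rpl37rt (r = 0.972). This likeness is a description over 8 libraries that share preparation, across which log2 CPM of Rsph3b spanned 0.19.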

How the data were processed

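Paired-end reads were mapped by the authors with Hisat2 to the mouse genome of Ensembl (mm10 in the labels) and counted per gene with featureCounts 1.5.0-p3; the deposited values are raw counts, without pooling of replicates. Settings for strand and for reads with several positions, and the annotation release, are not given in the sources used here. The deposited tables also hold the authors' log2 fold changes and p-values, raw and adjusted, which were not used, and 9 columns of control libraries that belong to no sample of the series and were not used in any step. The 30302 genes in both tables had the same antagonist counts (0 differing values). The study's methods give fewer replicates for ligand-treated cells than the labels, which hold 4 libraries in each group and were followed. A figure caption of the study also gives 4 for ligand-treated cells.

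Counts of 8 libraries (4 per group, 32630602 to 45878639 counts) were fitted with edgeR 4.0.16 in R 4.3.3 (filterByExpr with minimum count 10, TMM, quasi-likelihood F test, no covariates, two-sided, Benjamini-Hochberg over all 18756 tested genes, called under 0.05). SEs derive from the F statistics and fold changes are dual over antagonist. Non-members carry adjusted p-values from this fit; members and shares of copies, chosen on this contrast, are given without p-values of their own, and counts of members called are printed only beside those over all genes. The procedure was tested on simulated counts. Alternatives were DESeq2 1.42.0, RLE size factors, no filter, summed copy pairs, the replicate number as a block and leaving out each library.

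Words of 31 and 150 bases and alignments (Biopython 1.88) used GENCODE M21 (GRCm38), where 31358 of 31406 identifiers were found and 30587 (97.5%) had the same coordinates. Words counted as shared occurred in a transcript of another gene on either strand.

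The members and gene lists were chosen with earlier results of these data known. Genes named are the members, their copies, at most 2 genes of each list with the largest difference, and the 3 genes most like the member of highest level. C1qa was named as the only called marker, and E430024P14Rik and AC183095.1 after their values were seen. Fgfr1op was named for the sequence it shares with Tagap1. A further gene list is not reported here.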

Additional observations from a re-analysis of the deposited data

Results flagged for a closer look

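Outlying libraries were sought in 40 sets of 4 values (9 members and 5 genes set beside them, and 6 shares, in each group), where a value was noted if its gap to the nearest of the others, as a part of the whole range, exceeded Dixon's critical value for 4 values. Chance marks about 1 in 20 such sets, and 3 were marked. Replicate 3 of the dual group had 1.57 CPM of AC183097.2, against 1.08 to 1.13 in the other dual libraries. Replicate 4 of the dual group had 0.564 CPM of AC183097.3, against 0.283 to 0.306. The share of AC183097.3 in its counts with Fbl was 1.24% in the same library, against 0.614 to 0.680%, and rests on the same 25 counts.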

How the results depend on the processing

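The number of genes called over the whole table depended on the fit: 39 in the fit reported, 366 without the low-count filter and 381 with DESeq2, and from 0 (without antagonist replicate 4, and without dual replicate 3) to 172 (without antagonist replicate 1) when 1 library was left out, with 5 and 6 without antagonist replicates 2 and 3. With the replicate number as a block 17 genes were called, and correlations of same-numbered libraries were -0.158, -0.047, -0.090 and -0.206, so the numbers do not pair the libraries. Fbl passed the threshold without the filter (-0.19, adjusted p = 0.0182), with DESeq2 (-0.18, adjusted p = 0.0040) and without antagonist replicate 1, and ranged from -0.21 to -0.17 on leaving out 1 library. Its sum with AC183097.3 passed with DESeq2 (-0.19, adjusted p = 0.0028) and without antagonist replicate 1 (-0.21, edgeR adjusted p = 0.0210), and ranged from -0.21 to -0.17. AC183097.3 held only 0.614 to 1.46% of the summed counts, so the sum repeats Fbl and says nothing of AC183097.3. On leaving out 1 library the log2 fold change changed sign for AC183097.2 (-0.33 to 0.014; antagonist replicate 2), Gm2885 (-0.042 to 0.10; dual replicate 4) and Tagap1 (-0.086 to 0.022; antagonist replicate 1, dual replicates 1 and 2). Rnaset2b ranged from -0.15 (without dual replicate 4) to -0.037 (without dual replicate 1), AC122413.1 from 0.13 (without dual replicate 4) to 0.73 (without dual replicate 3), AC183097.3 from -0.66 to -0.08 and Rsph3a from -0.34 to -0.04. Differences in share ranged from 1.5 to 3.49 points for Rnaset2b, -0.20 (without antagonist replicate 4) to 4.63 points for Rsph3b, 1.93 to 3.6 (without dual replicate 2) for Tagap1, -0.27 to 0.064 (without antagonist replicate 1) for AC183097.3 and 8.70 to 19.2 (without dual replicate 3) for AC122413.1; the cause was not tested. The members with under 40 counts per library (Gm26848, AC183097.3 and AC122413.1) had the widest intervals.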
